A study of Mus musculus with 6 samples.

Results

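Type I interferon stimulated genes were examined in natural killer cells (NKC) that lacked the transcription factor Runx3. The set held 39 genes, listed by name, and each was read through Affymetrix probe sets annotated to that gene symbol alone. Such probe sets were found for 37 of the 39 genes, out of 18193 genes named in the whole series. Of these, 32 had a log2 signal of at least 5 on at least 1 array and were tested, among 9545 genes tested in all. Ifit1, Oas2, Oasl1, Oasl2 and Mx2 stayed below log2 5 on all 6 arrays, and Isg15 and Ifi44 had no probe set of their own symbol alone, so neither has a value here. The cells came from spleens of ICR mice aged 6 weeks, 3 samples of Runx3-/- and 3 of WT, with 1 array a sample. They were enriched by negative selection, sorted for the surface antigen DX5 (CD49b) and analyzed freshly isolated, without stimulation. The design text has each sample taken from an individual mouse, yet the sex entry reads male and female for every sample in both groups, so whether a sample is 1 animal or a pool is not settled. The labels name no tissue-restricted deletion, and they do not say which part of Runx3 the allele lacks.

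Type I interferons are secreted when cells sense viral nucleic acid. They bind the receptor made of Ifnar1 and Ifnar2, whose kinases Jak1 and Tyk2 activate Stat2. Stat2 acts with Irf9 in a complex that binds the interferon stimulated response element (ISRE) in promoters of the genes described here, which encode RNA sensors, blocks to viral entry and replication, and regulators of the pathway itself. A low tonic level of interferon keeps many of these genes partly on in resting cells, and interferon also primes the cytotoxicity of NKC.

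The 32 tested genes lay, as a list, slightly higher in Runx3-/- NKC. Their median change, as log2 Runx3-/- minus WT, was 0.22, while the median over all 9545 tested genes was -0.13. The mean of Runx3-/- exceeded that of WT for 24 of the 32 genes (75.0%), against 37.8% of all tested genes. The mean log2 signal over the 32 genes was 8.48, 8.34 and 8.46 on the Runx3-/- arrays, against 8.16, 7.94 and 8.19 on the WT arrays. Each Runx3-/- array therefore lay above each WT array. Averaged by group this was 8.42 ± 0.08 in Runx3-/- and 8.10 ± 0.13 in WT (SD, n = 3 each), a difference of 0.33. Over all tested genes the same average was 8.85 ± 0.08 in Runx3-/- and 8.93 ± 0.04 in WT (SD, n = 3 each). For the 27 genes at log2 5 or more on all 6 arrays, which did not pass the filter through 1 group, the median change was 0.20, and that of all genes held to the same level was -0.14. The mean over these 27 genes was 8.97 ± 0.05 in Runx3-/- and 8.71 ± 0.08 in WT (SD, n = 3 each), a smaller difference of 0.26.

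**Figure D1:**
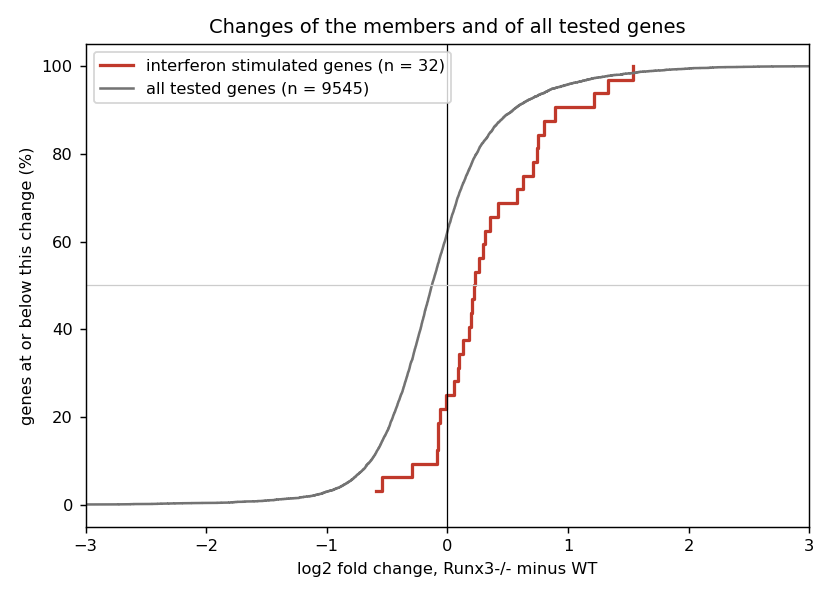
Cumulative share of genes (y axis, percent) at or below each log2 fold change, Runx3-/- minus WT (x axis), for the 32 tested interferon stimulated genes and for all 9545 tested genes. The line of the interferon stimulated genes crosses 50% at 0.22 and that of all genes at -0.13.

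Few single genes passed a test on their brightest probe set. A gene was called at the study's thresholds where its unadjusted p was under 0.05 and its change at least 1.5-fold, with limma as the test, and a stricter criterion asked for a Benjamini-Hochberg (BH) adjusted p under 0.05 over all tested genes. At the study's thresholds, Ifitm1 and Mx1 were higher in Runx3-/-, 2 of 32 (6.25%) against 4.89% of all tested genes. Ifi35 was lower, 1 of 32 (3.12%) against 8.86%. None of the 32 passed BH 5%, which 0.608% of all tested genes passed, and the same 3 genes had an unadjusted limma p under 0.05. In a fit of all probe sets, dimmer probe sets of Adar and Parp14 were also higher at the study's thresholds, and one of Ifi35 was lower. All 3 Runx3-/- values lay above all 3 WT values for Ifitm1, Mx1, Bst2 and Isg20, 12.5% of the list against 5.98% of all genes. They lay below all 3 WT values for Ifi35, 3.12% of the list against 16.8%. Of the 29 genes not called, 16 had a 95% interval that left out a 2-fold change in both directions, and 4 left out a 1.5-fold change, so that for most of them a 1.5-fold change stays within the error of 3 arrays a group.

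**Figure D2:**
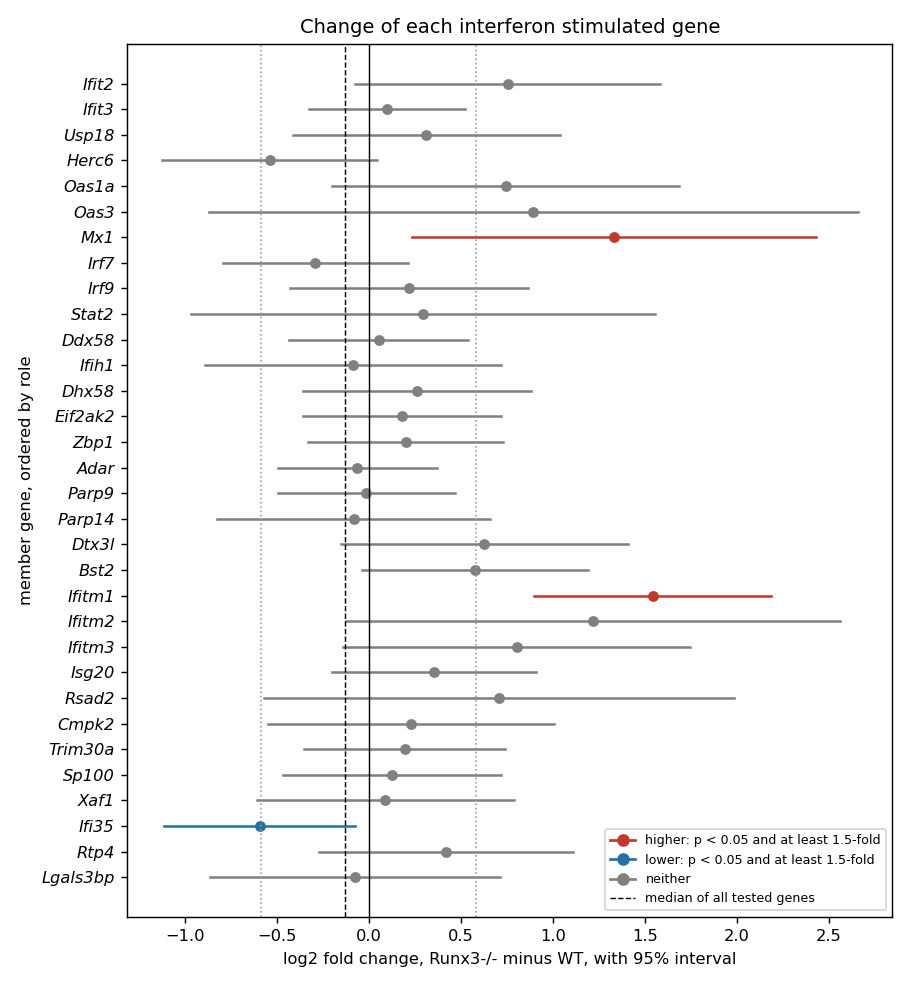
Log2 fold change, Runx3-/- minus WT (x axis), with its 95% confidence interval for each of the 32 tested interferon stimulated genes, grouped by role. The intervals of Ifitm1, Mx1 and Ifi35 leave out 0.

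Runx3 itself, read on the same arrays, was 7.76, 8.51 and 8.68 in Runx3-/- and 10.11, 11.56 and 10.73 in WT, 5.59-fold lower (limma adjusted p = 0.0565). A second, dim Runx3 probe set read 4.57, 3.77 and 4.65 in Runx3-/- and 4.63, 4.59 and 5.88 in WT, with overlapping groups. Correlations between arrays ran from 0.950 to 0.974 within groups and from 0.925 to 0.960 between them. The sorted cells carried NKC markers in both groups, with a mean log2 of 12.95 to 13.24 in Runx3-/- and 12.86 to 13.33 in WT. Of the 12 tested NKC markers none was higher and 1 was lower, against 4.89% and 8.86% of all tested genes. The lower gene was Eomes, 1.63-fold lower in Runx3-/- without overlap (limma adjusted p = 0.185). Markers of some other cells differed between the genotypes. Of the basophil and mast cell list 7 of 9 tested genes were higher and 2 passed BH 5%, against 4.89% and 0.608% of all tested genes. That list averaged 10.27, 9.13 and 9.03 on the Runx3-/- arrays, against 8.19, 7.82 and 8.22 on the WT arrays. The B cell list averaged 7.05, 6.29 and 6.03 in Runx3-/- and 6.04, 5.10 and 5.18 in WT, with 3 of 8 tested genes higher. The macrophage list ran from 5.07 to 9.04 in Runx3-/- and from 6.22 to 6.50 in WT, so the groups overlapped. Of its 10 tested genes 2 were higher, against 4.89% of all tested genes. Adgre1 had 8.85, 8.33 and 7.05 in Runx3-/- and 6.20, 6.53 and 5.91 in WT, 3.63-fold higher without overlap (limma adjusted p = 0.133). The other, Cd14, reached log2 5 on the first Runx3-/- array alone (5.64). The basophil, B cell, macrophage and plasmacytoid dendritic cell lists were each highest on the first Runx3-/- array. Ifitm1, Ifitm2, Ifitm3, Mx1 and Bst2 were also highest there. That array gave the highest value of its group for 45.7% of all tested genes. Of the 8 plasmacytoid dendritic cell markers with a probe set, Siglech, Ccr9, Ly6d and Pacsin1 were below log2 5 on all 6 arrays, and the other 4 were tested with none called. Of those 4, Tcf4 lay at 9.02 to 9.25 in Runx3-/- and 9.13 to 9.46 in WT, and Spib at 5.53 to 8.03 in Runx3-/- and 4.39 to 7.39 in WT. The list averaged 4.09 to 4.64 in Runx3-/- and 4.31 to 4.50 in WT. The neutrophil list averaged 6.76, 4.77 and 4.54 in Runx3-/- and 6.71, 7.36 and 4.04 in WT. Of its 8 tested genes 1 was higher and 1 lower. The T cell list averaged 6.51, 6.09 and 6.15 in Runx3-/- and 6.01, 6.41 and 6.51 in WT, with none of 6 tested genes called. In sorted bulk cells a change in the share of a cell type cannot be told apart from a change in RNA per cell. The part of these cell types in the changes of the interferon stimulated genes was not tested.

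**Figure D3:**
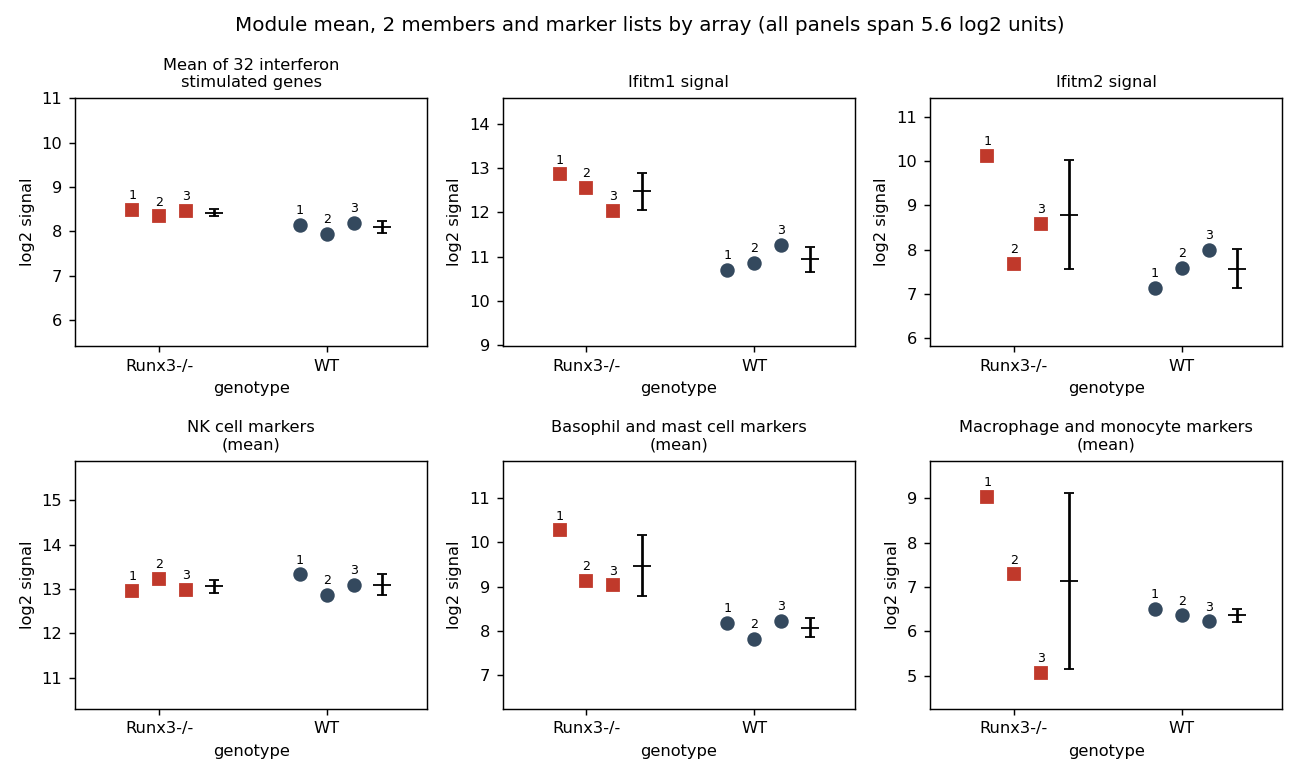
Log2 signal (y axis) on each array, Runx3-/- left of WT, for the mean of the 32 interferon stimulated genes, for 2 members and for marker lists, each panel spanning the same number of log2 units. The basophil and mast cell list lies higher on all 3 Runx3-/- arrays (9.03 to 10.27) than on the WT arrays (7.82 to 8.22).

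Among the members, the 4 membrane restriction factors had a median change of 1.01, and all 4 means were above those of WT, although Ifitm1 alone was called. Ifitm1, Ifitm2 and Ifitm3 encode small membrane proteins that hinder the fusion of enveloped viruses with the cell, and Bst2 encodes tetherin, which holds budding virions at the cell surface. Ifitm1 had a log2 signal of 12.86, 12.55 and 12.03 in Runx3-/- NKC, against 10.71, 10.85 and 11.26 in WT NKC. The groups did not overlap. The mean was 12.48 ± 0.42 in Runx3-/- and 10.94 ± 0.29 in WT (SD, n = 3 each), 2.91-fold higher in Runx3-/- (log2 change 1.54, SE 0.28, limma adjusted p = 0.0672). Ifitm1 met the study's thresholds under each of 19 alternative settings, with a log2 change of 1.35 to 1.77. Its limma adjusted p ranged from 0.0306 to 0.228 under them, and it passed BH 5% under 3 of them.

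Ifitm2 had a log2 signal of 10.11, 7.68 and 8.57 in Runx3-/- and 7.13, 7.59 and 7.995 in WT. Only the second Runx3-/- array fell within the WT range. Ifitm3 had 10.25, 8.75 and 9.22 in Runx3-/- and 8.38, 8.38 and 9.06 in WT, and again the second Runx3-/- array overlapped WT. Their changes of 1.22 (SE 0.57) and 0.80 (SE 0.40) missed the threshold (limma adjusted p = 0.347 and 0.373). Both values rest on single arrays, since without the second Runx3-/- array they met the study's thresholds, at 1.77 and 1.13, and without the first they were 0.56 and 0.38. Bst2 had a log2 signal of 6.77, 6.21 and 6.07 in Runx3-/- and 5.48, 6.04 and 5.79 in WT. Its groups lay apart by a small gap, and its change of 0.58 (SE 0.26, limma adjusted p = 0.331) fell just short of 1.5-fold. Its unadjusted limma p of 0.0612 also missed the cutoff. Bst2 met the thresholds without the third Runx3-/- array, at 0.72, and was at 0.37 without the first. The first Runx3-/- array was the highest of all 6 for each of these 4 genes.

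**Figure D4:**
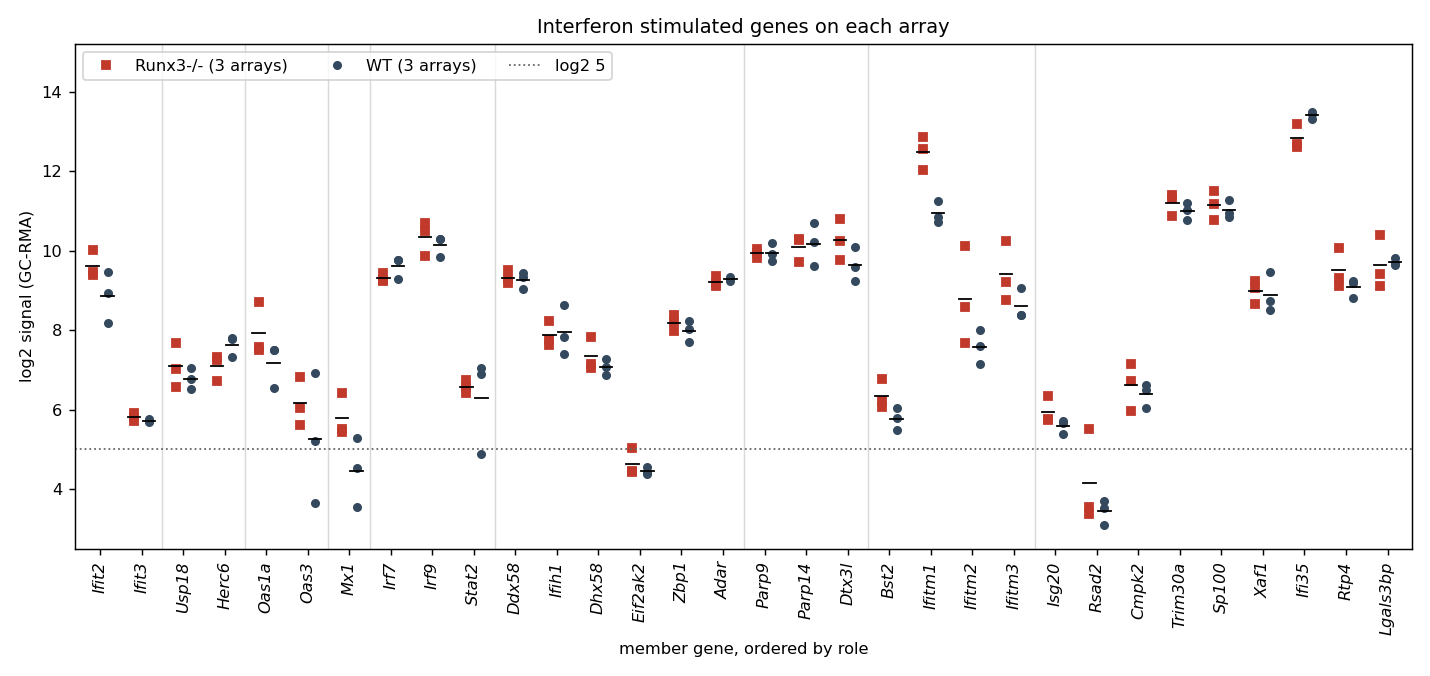
Log2 signal (y axis) on each array for interferon stimulated genes, with Runx3-/- points left of WT points and a bar at each group mean. Ifitm1 and Ifi35 show no overlap between the groups, while Ifitm2 overlaps through 1 Runx3-/- array.

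The Ifitm genes lie side by side on chromosome 7, in the order Ifitm2, Ifitm1, Ifitm3 with no protein-coding gene between them, and their promoters are shown because these neighbours include the gene with the smallest p in the list. Each sequence is a RefSeq window of assembly GRCm38.p6, from 250 bases before the annotated start to 50 after it, written 5′ to 3′ on the strand of the gene. Capitals mark the core of an ISRE, searched on both strands as GAAA, any 2 bases, GAAA, and the bases between paired capitals are those 2 bases.
Ifitm1, chr7:140967826-140968125, plus strand: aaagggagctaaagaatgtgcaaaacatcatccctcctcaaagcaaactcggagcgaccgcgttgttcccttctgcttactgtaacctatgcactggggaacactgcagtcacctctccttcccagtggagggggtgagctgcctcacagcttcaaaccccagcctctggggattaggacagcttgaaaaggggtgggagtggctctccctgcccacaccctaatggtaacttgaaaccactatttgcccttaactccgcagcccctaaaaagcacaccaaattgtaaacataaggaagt
Ifitm2, chr7:140955912-140956211, minus strand: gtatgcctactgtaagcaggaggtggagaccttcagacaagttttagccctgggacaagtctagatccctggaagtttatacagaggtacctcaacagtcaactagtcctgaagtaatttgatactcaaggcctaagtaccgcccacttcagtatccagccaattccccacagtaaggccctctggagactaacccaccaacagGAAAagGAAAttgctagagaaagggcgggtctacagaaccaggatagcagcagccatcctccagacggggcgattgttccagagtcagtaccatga
Ifitm3, chr7:141010695-141010994, minus strand: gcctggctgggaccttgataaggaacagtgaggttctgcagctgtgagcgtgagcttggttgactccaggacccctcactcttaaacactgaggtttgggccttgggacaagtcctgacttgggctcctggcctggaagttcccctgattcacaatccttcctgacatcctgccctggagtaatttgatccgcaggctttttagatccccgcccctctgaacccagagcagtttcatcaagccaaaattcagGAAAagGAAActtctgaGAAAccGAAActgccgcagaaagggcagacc
The core was found 46 bases before the start of Ifitm2, and at 3 and 20 bases after the start of Ifitm3. These letters were not found in the window of Ifitm1, the gene with the largest change among the 32 tested. The letters bound by RUNX proteins (TGTGGT or its relative TGTGGC, and likewise the variants TGCGGT or else TGCGGC, searched on both strands) were found once in the window of Ifitm3 and not in those of Ifitm1 and Ifitm2.

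Among all listed genes 30 had such a window, and 14 of them (46.7%) held the ISRE core, against 3.99% of 27025 genes in the whole promoter table. RUNX letters were found in 16 of the 30 (53.3%), against 48.7% of the table. The ISRE share describes a list that was compiled as interferon stimulated genes. Among the tested genes with a window, those with the core had a median log2 change of 0.44 (12 genes, -0.09 to 1.22, 11 of them with the higher mean in Runx3-/-). Those without it had a median of 0.13 (13 genes, -0.59 to 1.54, 8 with the higher mean in Runx3-/-). Genes with RUNX letters had a median of 0.13 over 15 genes and those without them 0.66 over 10 genes. The ranges overlap widely, and the difference was not tested.

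Mx1 encodes a GTPase that blocks influenza virus in the mouse nucleus. Its log2 signal lay near the filter level, at 6.42, 5.43 and 5.51 in Runx3-/- and 5.29, 3.54 and 4.54 in WT. The groups did not overlap, and the lowest Runx3-/- array was close to the highest WT array. The change was at least 1.61-fold, with WT values under log2 5 raised to 5 (fitted log2 change 1.33, SE 0.47, limma adjusted p = 0.237). The call was lost without the first Runx3-/- array (1.02) and without the second WT array (0.87), with values raised to log2 5 before the fit (0.69), and without the filter on level.

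The IFIT and OAS families showed higher means that did not pass the test. Ifit2 and Ifit3 bind viral RNA or the translation machinery, and Oas1a and Oas3 sense double-stranded RNA and make the oligoadenylates that activate RNase L. Ifit2 had a log2 signal of 9.38, 9.46 and 10.02 in Runx3-/-, against 9.47, 8.94 and 8.18 in WT, and the groups overlapped through the first WT array. Its change was 0.75 (SE 0.36, limma adjusted p = 0.347), and without that WT array it met the study's thresholds at 1.06, while without the third WT array it was 0.41. Oas1a had 7.50, 7.58 and 8.69 in Runx3-/- and 7.49, 6.55 and 7.50 in WT, a change of 0.74 (SE 0.40, limma adjusted p = 0.401). The third Runx3-/- array was high and the second WT array low, and the change was 0.36 without the first of these and 0.43 without the other. Oas3 spread widely within WT (3.65, 5.22 and 6.93) and lay at 5.61, 6.05 and 6.82 in Runx3-/-, where the change of 0.89 had an SE of 0.76. Oas3 met the thresholds without the third WT array, at 1.73, and was at 0.09 without the first. Ifit3 differed little, with 5.81, 5.72 and 5.92 in Runx3-/- and 5.76, 5.68 and 5.70 in WT (change 0.10, SE 0.18).

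The promoters of Oas1a and Ifit3 are printed as members that carry the ISRE core, with the same marks and from the same assembly, and Ifi35 as the one gene called lower.
Oas1a, chr5:120907476-120907775, minus strand: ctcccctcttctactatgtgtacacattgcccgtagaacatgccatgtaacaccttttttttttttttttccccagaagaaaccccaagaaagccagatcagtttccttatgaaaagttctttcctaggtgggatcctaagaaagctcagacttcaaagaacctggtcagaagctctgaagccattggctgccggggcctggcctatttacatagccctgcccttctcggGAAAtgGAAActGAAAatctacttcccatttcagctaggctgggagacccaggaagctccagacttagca
Ifit3, chr19:34583279-34583578, plus strand: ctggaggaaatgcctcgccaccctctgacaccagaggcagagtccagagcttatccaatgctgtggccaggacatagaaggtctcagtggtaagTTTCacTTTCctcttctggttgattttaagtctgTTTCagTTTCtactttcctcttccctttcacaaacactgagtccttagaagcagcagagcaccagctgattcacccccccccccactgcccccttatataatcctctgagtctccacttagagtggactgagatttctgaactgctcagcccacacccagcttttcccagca
Ifi35, chr11:101448162-101448461, plus strand: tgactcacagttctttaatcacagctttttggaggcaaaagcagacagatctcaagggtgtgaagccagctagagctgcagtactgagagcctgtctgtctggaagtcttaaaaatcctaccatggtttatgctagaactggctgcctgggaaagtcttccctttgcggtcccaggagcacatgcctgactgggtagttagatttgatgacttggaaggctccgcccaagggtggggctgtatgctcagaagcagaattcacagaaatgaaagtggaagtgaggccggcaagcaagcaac
Oas1a held 2 overlapping cores, 20 and 14 bases before the start, and Ifit3 held 2 on the opposite strand, 156 and 122 bases before it. In the Ifi35 window the core was not found, and the RUNX letters were found once.

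Ifi35 encodes a leucine zipper protein that pairs with Nmi. It had a log2 signal of 13.18, 12.62 and 12.68 in Runx3-/- NKC, against 13.32, 13.43 and 13.50 in WT NKC. The groups did not overlap. The change was -0.59 (SE 0.22, limma adjusted p = 0.262), 1.51-fold lower in Runx3-/-, at the edge of the fold threshold. This probe set reads several transcripts, and a second one read 9.58, 8.94 and 9.54 in Runx3-/- and 10.01, 9.96 and 10.16 in WT, also without overlap and with a change of -0.69. The remaining probe set gave -0.46, with overlapping groups. The call for Ifi35 was lost in 9 of the 19 alternatives, among them without the second (-0.49) and the third (-0.52) Runx3-/- array and without the second (-0.59) and the third (-0.55) WT array, while its sign stayed the same in all 19.

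The sensors of foreign nucleic acid lay near no change, with a median of 0.12 over 6 genes and a range of -0.09 to 0.26. Ddx58 encodes RIG-I and had a log2 signal of 9.50, 9.18 and 9.29 in Runx3-/- and 9.44, 9.33 and 9.03 in WT (change 0.05). Ifih1, which encodes MDA5, had 8.23, 7.75 and 7.63 in Runx3-/- and 8.64, 7.82 and 7.41 in WT (change -0.09). The groups overlapped on these probe sets, while a second Ddx58 probe set read 7.29, 7.39 and 7.32 in Runx3-/- and 7.80, 7.48 and 7.61 in WT, without overlap and in the other direction (-0.30, limma adjusted p = 0.507 over all probe sets). Dhx58, which encodes the regulator LGP2, differed by 0.26, Zbp1, a sensor of nucleic acid in the Z form, by 0.20 (-0.31 on its other probe set), and Eif2ak2, the kinase PKR, by 0.18 with 1 array of 6 at log2 5. Adar, which edits adenosine in double-stranded RNA, differed by -0.06 on its brightest probe set. Its probe sets went opposite ways, since one gave -0.46, and another gave 8.17, 8.42 and 7.67 in Runx3-/- against 7.27, 6.15 and 7.13 in WT, 2.36-fold higher (limma adjusted p = 0.220 over all probe sets). Adar therefore has no single direction on these arrays.

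The transcription factors of the pathway overlapped between the groups. Irf7, which drives the interferon alpha genes, had a log2 signal of 9.24, 9.27 and 9.44 in Runx3-/- and 9.76, 9.29 and 9.77 in WT, a change of -0.29. Irf9 had 9.87, 10.49 and 10.70 in Runx3-/- and 10.30, 9.83 and 10.29 in WT, a change of 0.22. Stat2 differed by 0.29 with an SE of 0.54, and it lay at 6.42, 6.74 and 6.56 in Runx3-/- and 7.06, 4.89 and 6.90 in WT. The second WT array alone was low, and without it the sign of the Stat2 change turned (-0.40). A second Stat2 probe set gave a change of 0.01. The smallest limma adjusted p of the 3 genes was 0.529.

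Usp18, the protease that removes Isg15 from proteins, differed by 0.31 and Herc6, a ligase that attaches it in the mouse, by -0.54. Herc6 had 6.73, 7.32 and 7.24 in Runx3-/- and 7.80, 7.32 and 7.78 in WT, which touch at the second array of each group. Its limma adjusted p was 0.341, and without the second WT array it met the thresholds at -0.70, while without the first Runx3-/- array it was -0.35. The 3 other Herc6 probe sets gave -0.06, 0.10 and 0.13.

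Parp14, Dtx3l and Parp9 are adjacent on chromosome 16 and encode enzymes of ADP-ribosylation and a ubiquitin ligase that pairs with Parp9. Dtx3l had a log2 signal of 10.24, 10.80 and 9.75 in Runx3-/- and 9.59, 9.23 and 10.08 in WT. The groups overlapped through the third array of each, and the change was 0.63 (SE 0.33, limma adjusted p = 0.393). It met the study's thresholds without the third Runx3-/- array (0.88) or without the third WT array (0.85), and was 0.36 without the second Runx3-/- array. A second Dtx3l probe set gave a smaller change of 0.19, also with overlapping groups. The neighbours of Dtx3l, Parp9 and Parp14, differed by -0.01 and -0.08. Another Parp14 probe set read 6.06, 6.49 and 6.65 in Runx3-/- and 5.64, 5.01 and 5.78 in WT, 1.90-fold higher without overlap (limma adjusted p = 0.234 over all probe sets), unlike the brightest one.

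Among the other effectors the median change over 9 genes was 0.19. Isg20, an exonuclease that degrades RNA, had 6.34, 5.74 and 5.76 in Runx3-/- and 5.40, 5.67 and 5.72 in WT, a gap between the groups far smaller than the spread within Runx3-/- (change 0.35, limma adjusted p = 0.489). Rsad2 encodes viperin and reached log2 5 on the first Runx3-/- array alone (5.52), with 3.55 and 3.37 on the other Runx3-/- arrays and 3.70, 3.53 and 3.09 in WT. Rtp4, a chaperone of receptors, differed by 0.42, Cmpk2, a mitochondrial nucleotide kinase next to Rsad2 on chromosome 12, by 0.23, and Trim30a, a mouse TRIM protein, by 0.19. Sp100, a nuclear body protein, differed by 0.13, Xaf1, a partner of XIAP, by 0.09, and Lgals3bp, a secreted glycoprotein, by -0.07. On the probe sets used here, all of these groups overlapped except those of Isg20. A second Trim30a probe set read 9.68, 10.05 and 9.50 in Runx3-/- and 9.50, 9.16 and 8.44 in WT, 1.64-fold higher and apart by a very small gap (limma adjusted p = 0.358 over all probe sets).

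The genes did not share one ordering of the arrays. The third Runx3-/- array gave the highest value of its group for 13 of the 32 genes (26.5% of all tested genes), including Ifit2, Oas1a, Usp18, Rtp4 and Irf9. The first gave it for 11 (45.7% of all tested genes), including the 3 Ifitm genes, Mx1, Bst2, Rsad2 and Isg20. In WT the second array gave the lowest value of its group for 14 genes (29.3% of all tested genes), among them Stat2, Oas1a and Mx1.

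Other genes of the pathway gave few calls. Of the receptor and signaling list 18 of 21 were tested, and their median change was -0.04, against -0.13 over all tested genes. None was higher and 1 was lower, against 4.89% and 8.86% of all tested genes. That gene was Ptpn6, the phosphatase SHP-1, which restrains Jak signaling and serves inhibitory receptors of NKC, with 11.91, 11.56 and 12.04 in Runx3-/- against 12.73, 12.88 and 12.97 in WT. The groups lay well apart, 2.03-fold lower in Runx3-/- (limma adjusted p = 0.101). Ifnar1 and Ifnar2 differed by -0.15 and -0.30 and were not called. Of 10 tested sensors and adaptors upstream of interferon none was higher and 1 was lower, again against 4.89% and 8.86% of all tested genes. The lower gene was Mavs, the mitochondrial adaptor of RIG-I and MDA5. It was 1.69-fold lower (limma adjusted p = 0.203) on a probe set of the kind that can cross-hybridise. Among 7 interferon ligands with a probe set, Ifng alone reached log2 5, with 10.13, 10.15 and 10.18 in Runx3-/- and 9.77, 9.96 and 9.62 in WT. The groups did not overlap, and the change of 0.37 was within 1.5-fold (limma adjusted p = 0.385).

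A further list held 57 interferon stimulated genes, 41 of them tested. At the study's thresholds 4 were higher and none lower, against 4.89% and 8.86% of all tested genes. None passed BH 5%, and the median change was 0.07, against -0.13 over all tested genes. Ifit1bl1, a relative of Ifit1, had 7.50, 7.61 and 8.04 in Runx3-/- and 6.93, 6.33 and 6.30 in WT, 2.29-fold higher without overlap (limma adjusted p = 0.116). Ifi27l2a, a mitochondrial protein, had 8.29, 6.99 and 7.03 in Runx3-/- and 6.61, 5.64 and 6.34 in WT, 2.37-fold higher (limma adjusted p = 0.223). Phf11d was 1.68-fold higher (limma adjusted p = 0.180). Slfn1 was called with WT values of 3.69, 3.19 and 3.02, all below log2 5, against 5.29, 4.93 and 3.71 in Runx3-/-, so its size is not measured.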

How the data were processed

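Total RNA of DX5-sorted splenic NKC was hybridised to Affymetrix mouse expression arrays, 1 per sample. The labels and the study's methods name different labelling kits. The authors processed the scanner files with GCRMA in Partek, whose versions are not stated, and deposited log2 values for 45101 probe sets. This method subtracts a background set by base content and scales the arrays to each other, so a change in total RNA cannot be seen and dim values follow the background model. The array medians of the deposited values still ran between 3.42 and 3.52. Signals of different probe sets are not comparable as levels.

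Among the 34945 probe sets with 1 gene symbol in the platform annotation (932 had several), the brightest on average over the 6 arrays stood for each gene, and genes at log2 5 or more on at least 1 array were tested. The sources do not state the background level of the study, for which log2 5 stands in. A limma 3.58.1 fit (lmFit, eBayes) in R 4.3.3 contrasted Runx3-/- with WT on all 6 arrays, with Benjamini-Hochberg adjustment over 9545 genes. The cutoffs that the study set (p below 0.05 without adjustment, 1.5-fold) were applied to this test because its own is not named. Folds come from mean log2 values. The number of arrays limits the precision. All listed genes are described, and of the other pathway lists those at the cutoffs with Ifnar1, Ifnar2 and Ifng. The fit was run on simulated arrays to check that planted changes came back on average, which does not test the calls made here. Alternatives changed the scaling, filter, floor, moderation, weights, probe set rule and samples. Members and lists were chosen with earlier results of these data known.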

Additional observations from a re-analysis of the deposited data

How the results depend on the processing

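As reported, on the brightest probe sets 2 members were higher, 1 was lower and 0 passed BH 5%, with a median change of 0.22. The lower call became 0 when each array was centred on its median over all probe sets, with quantile normalization, with the mean of all probe sets of a gene, and with the replicate number as a block. The block left 2 members higher and 0 passing BH 5%, and no gene of the whole table passed it (58 without the block). Same-numbered arrays did not deviate together (correlations 0.0652, -0.186 and 0.154), so the numbers were not taken as pairs. With values under log2 5 raised to 5, 1 member was higher. With trend and robust moderation 1 member, Ifitm1, passed BH 5%. With array weights 4 members were higher and 1 passed BH 5%, at a median change of 0.31. Centring each array on its median over the tested genes, chosen after seeing the data, put the median of all genes at -0.01, against -0.13 otherwise. It gave 6 members higher (Bst2, Ifit2, Ifitm1, Ifitm2, Ifitm3 and Mx1), 0 lower and 1 passing BH 5%, a median change of 0.35, a difference in list mean of 0.45, and 627 higher against 497 lower over all genes (467 and 846 before). Leaving out 1 array at a time gave 1 to 4 members higher, 0 to 1 lower, a median change of 0.12 to 0.31 and 2 to 5 pathway genes lower. Over the whole table BH calls then ran from 0 to 127. The cause of these shifts was not tested. Of the 29 members not called, 17 kept their sign in all alternatives, 12 changed it in at least 1, and 8 were called in at least 1.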
